A study of Mus musculus with 9 samples.

Results

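The effect described here is that of ifetroban on transcript levels in mouse left ventricle, averaged over wild-type (WT) mice and mice lacking delta-sarcoglycan (KO, called dSG KO in the labels). It is the mean of the ifetroban minus vehicle difference within WT and the same difference within KO, so that each genotype counts equally. All 9 libraries of the series enter it, 5 from ifetroban-treated mice (2 WT and 3 KO) against 4 from vehicle-treated mice (2 WT and 2 KO). Polyadenylated RNA was sequenced, and the values are reads counted per gene, given below as CPM (reads per gene, scaled to a common library size) after normalization. CPM is not divided by gene length, so CPM values compare libraries and not genes. Strain, sex, age, the design of the knockout allele, and the dose and duration of treatment are not given in the sources used here. The labels do not say whether each library is its own mouse, and every p-value below therefore reflects only how far these samples scatter, which may be technical.

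Ifetroban is an antagonist of the receptor that the gene Tbxa2r encodes, the thromboxane-prostanoid receptor. Thromboxane A2 and prostaglandin H2 act on this receptor, which couples to Gq and G12/13, constricts vessels through calcium and RhoA kinase, and activates platelets. Prostaglandin H2 is made from arachidonic acid by the cyclooxygenases Ptgs1 and Ptgs2 and is then converted by separate synthases to thromboxane, prostacyclin and prostaglandins D and E. Delta-sarcoglycan, encoded by Sgcd, sits in the muscle membrane with dystrophin, and mice without it develop cardiomyopathy.

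The libraries held 21299748 to 31394548 counts in genes. Ventricular markers were present in every library: Myh6, the main myosin heavy chain of the adult mouse ventricle, held 11200 to 24400 CPM, while the atrial light chain Myl7 held 0.0397 to 0.327 CPM and atrial Sln had 0 reads in 6 of 9 libraries. Sgcd held 7.49 to 18.5 CPM in the KO libraries and 28.9 to 33.1 CPM in 3 WT libraries. In the library labelled WT vehicle replicate 1, Sgcd was at 11.1 CPM, within the KO range although the label is WT. Sgcd alone does not settle the genotype of this library, and its label was kept. Pttg1, a cell cycle gene also on chromosome 11, held 76.7 CPM in that library, 46.2 to 46.6 CPM in the other WT libraries and 1.66 to 2.46 CPM in the KO libraries. Level relative to the mean of all libraries was lower the longer the transcript in KO vehicle replicates 1 and 2, KO ifetroban replicate 1, and also in the library labelled WT vehicle replicate 1 (Spearman correlation across genes -0.417 to -0.29), here called the class with long transcripts low. It was higher the longer the transcript in the other 5 (0.302 to 0.386). So 3 of 4 vehicle libraries and 1 of 5 ifetroban libraries had long transcripts low. On the first principal component, with 47.5% of the variance, KO vehicle replicate 1 stood at 84.4 and KO ifetroban replicate 1 at 34.2, against -38.2 to 2.02 for the rest.

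No gene passed the test for an ifetroban effect averaged over both genotypes. The quasi-likelihood test of edgeR, adjusted by the Benjamini-Hochberg method over 15261 genes, called 0 genes (0%) at an adjusted p under 0.05, and the smallest adjusted p was 0.62. At an unadjusted p under 0.05, 376 genes (2.46%) were higher and 404 (2.65%) lower with ifetroban, 780 in all (5.11%) where 763 would be expected with no effect. DESeq2 called 1 gene, Ucp3, and limma with library weights called 0, with 859 higher and 780 lower at an unadjusted p under 0.05. The typical averaged change had a size of 0.19 on the log2 scale (median over genes), beside a median standard error of 0.18. In 37 genes (0.242%) all 5 ifetroban libraries lay above all 4 vehicle libraries, and in 51 (0.334%) all 5 lay below. The WT and KO effects, which share no libraries, had the same sign in 67.1% of genes and a Spearman correlation of 0.37 across genes, which also share the length trend and are not independent replicates.

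The genes with the smallest p are therefore given as values only. The 10 on the higher side held metabolic genes (Ucp3, Pfkfb1, Ppargc1b), regulators of small GTPases (Sos1, Arhgap26, Tbck), 2 genes of transcription (Bcl9l, a beta-catenin coactivator, and the homeobox gene Zfhx2), the arterial ligand Efnb2 and the metallopeptidase Lmln. Their averaged log2 fold changes ran from 0.37 to 1.02, and in 9 of the 10 the ifetroban libraries lay above the vehicle libraries within WT and within KO (1.81% of all tested genes did so). The other 10 held Ptgds, Mgp, Clec2d, Mfap5, Ifitm1, Cd59a, Rarres2, Ccl24, Ube2l6 and Ak6, with log2 fold changes of -1.07 to -0.49. Of these 10, 5 lay below without overlap within both genotypes, against 1.62% of all tested genes. Low p and the same sign in both genotypes chose these genes, so these shares describe them and support nothing further. Groups that did not overlap within a single genotype are also described below. With 2 or 3 libraries per group this is frequent even with no effect. Its share over all tested genes was not counted, so it only describes the values and supports nothing further. In whole tissue, fewer cells of a type and less RNA per cell cannot be told apart.

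**Figure D1:**
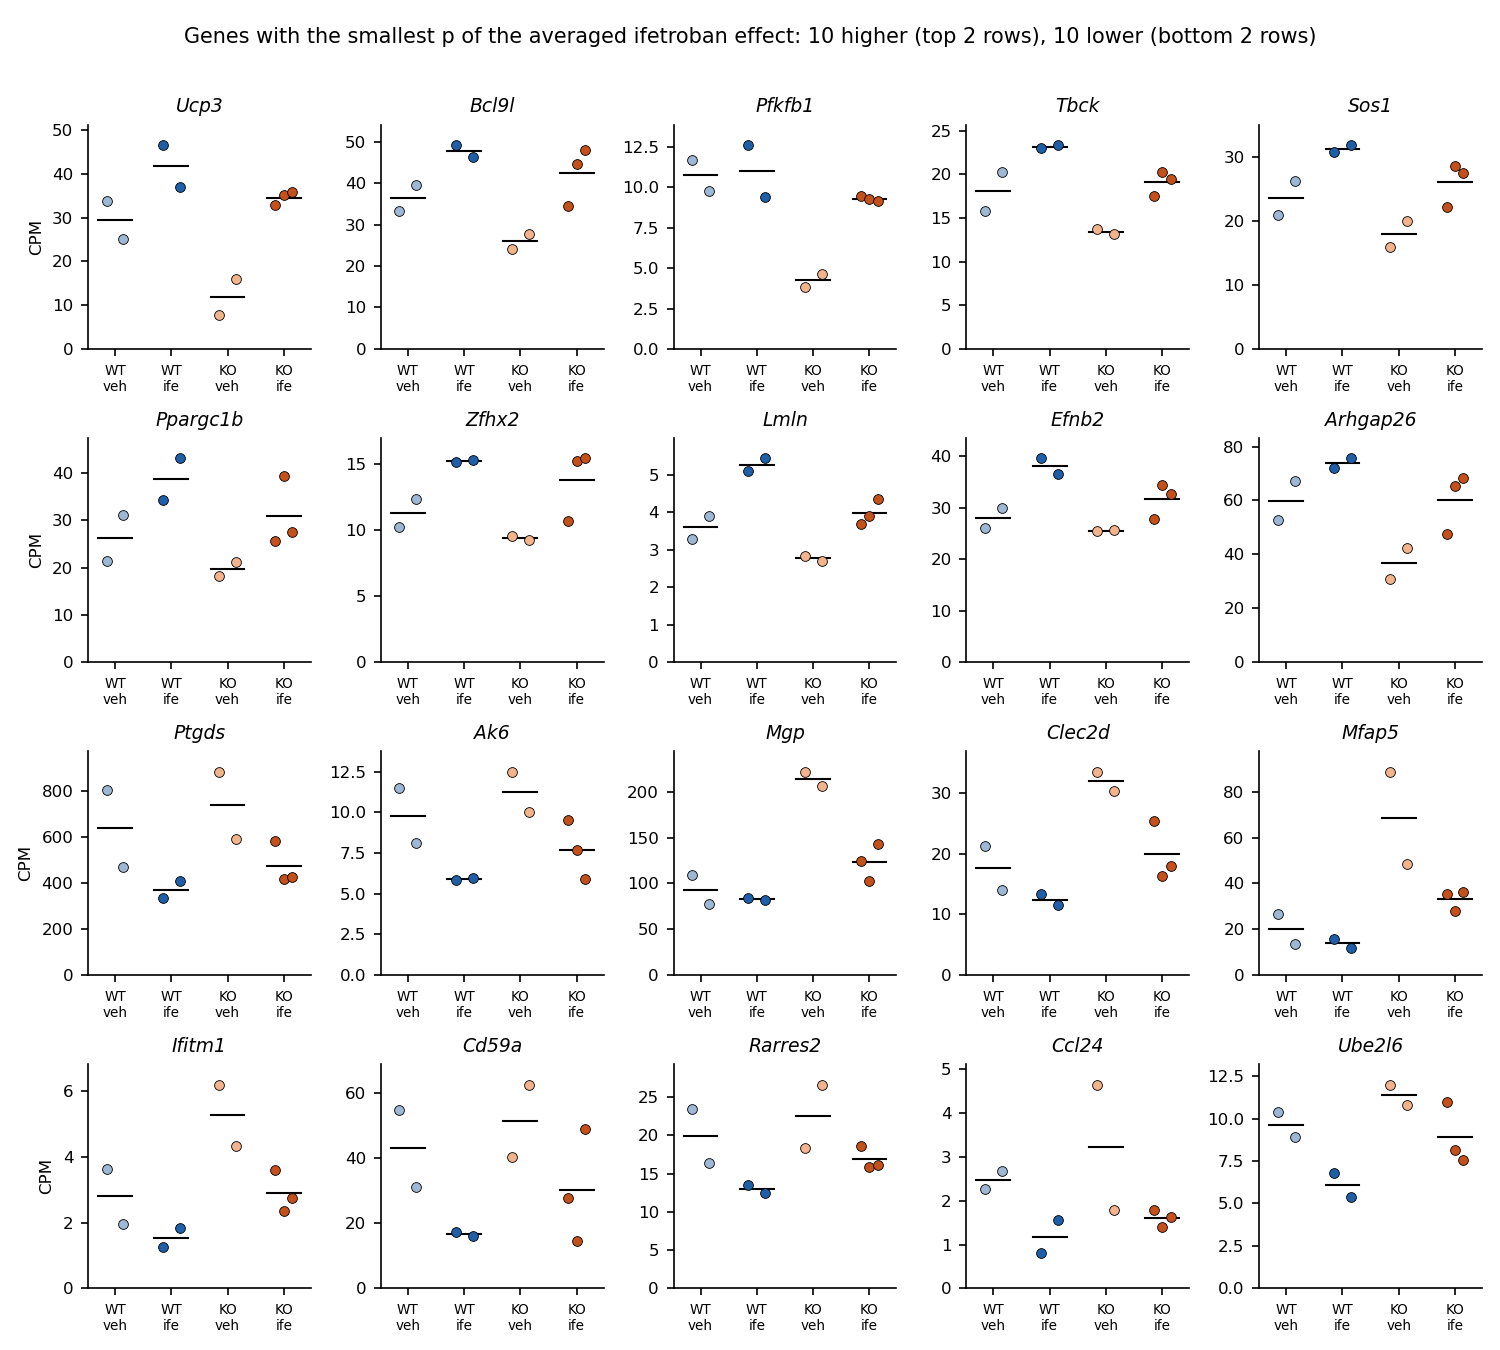
Level in CPM (vertical axes, from 0) of the 20 genes chosen by low p, expression and sign as given above, in every library, by genotype and treatment. Here veh is vehicle and ife is ifetroban. Points are libraries and bars group means. KO vehicle libraries are the lowest for Ucp3 at 7.72 and 16.0 CPM, and all 5 ifetroban libraries lie below all 4 vehicle libraries for Ccl24.

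Ucp3 (ENSMUSG00000032942, chromosome 7, 100472990 to 100486432, plus strand, GRCm38) encodes a carrier of the inner mitochondrial membrane that muscle makes when it burns fatty acids. Its level was 33.8 CPM in the library labelled WT vehicle replicate 1, 25.2 in the other WT vehicle library, and 46.5 and 37.0 in WT ifetroban. The KO vehicle libraries held 7.72 and 16.0 CPM, and the KO ifetroban libraries 32.8, 35.1 and 35.8. Each ifetroban library was above the vehicle libraries of its genotype, and the 3 KO ifetroban libraries reached the level of the WT libraries. The averaged log2 fold change was 1.02 ± 0.207 (SE, edgeR, unadjusted p = 0.000662, adjusted p = 0.62), from 0.50 in WT and 1.54 in KO. DESeq2 gave the same 1.02 with an adjusted p of 0.0331. Leaving out each library in turn gave 0.81 (without KO vehicle replicate 1) to 1.34 (without KO vehicle replicate 2). Length correction gave 1.08, and a term for the length class of the library gave 1.09. The class term rests on few libraries. KO ifetroban replicate 1 was the only ifetroban library with long transcripts low. In the other class, WT vehicle replicate 2 was the only vehicle library.

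Because Ucp3 had the smallest p of the 20 genes, the 250 bases before its start are shown (RefSeq, GRCm38.p6, chr7:100472741-100472990, plus strand). The nuclear receptor motif AGGTCA, searched on both strands, is in capitals. It matched 2 times here and occurred in 14.0% of the 32851 windows of that length. A match is a description of the letters and not a binding site.
Ucp3: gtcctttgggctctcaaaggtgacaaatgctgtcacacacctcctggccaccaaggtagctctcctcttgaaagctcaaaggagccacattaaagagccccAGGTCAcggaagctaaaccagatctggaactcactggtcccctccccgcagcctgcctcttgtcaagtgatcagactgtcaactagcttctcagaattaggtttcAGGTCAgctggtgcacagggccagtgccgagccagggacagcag

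Other genes of fuel use did not pass the test either, and their lists had medians near 0. Pfkfb1, an isoform of the enzyme that makes and breaks the glycolytic activator fructose 2,6-bisphosphate, held 11.7 and 9.78 CPM in WT vehicle, 12.6 and 9.43 in WT ifetroban, 3.86 and 4.65 in KO vehicle, and 9.49, 9.26 and 9.15 in KO ifetroban. The WT groups overlapped and the KO groups did not. Its averaged log2 fold change was 0.58 ± 0.148 (SE), with 0.04 in WT and 1.13 in KO (edgeR interaction, unadjusted p = 0.00464, adjusted p = 1). Ppargc1b, a coactivator of mitochondrial genes, held 21.4 and 31.2 CPM in WT vehicle, 34.4 and 43.1 in WT ifetroban, 18.2 and 21.1 in KO vehicle, and 25.7, 39.4 and 27.5 in KO ifetroban, an averaged log2 fold change of 0.61 ± 0.177 (SE). Cpt1a, which brings fatty acids into mitochondria, was at 0.53, but at 0.23 with the length class term. Among the 39 tested genes of fatty acid oxidation, 19 were positive. At an unadjusted p under 0.05, 2 (Ucp3 and Cpt1a) were higher (background 2.46%) and 1, Etfb, was lower (background 2.65%). Etfb shares 58.2% of its exonic length with another gene model. The 39 genes had a median of -0.02, with -0.09 in WT and 0.16 in KO. The median of all tested genes was -0.03, and 46.6% of them were positive. Glycolysis genes had a median of -0.05, with 12 of 28 positive.

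On the lower side Ptgds came first among the genes chosen as above. It encodes the lipocalin-type synthase that turns prostaglandin H2 into prostaglandin D2 (ENSMUSG00000015090, chromosome 2, 25466709 to 25470046, minus strand). Ptgds held 806 and 472 CPM in WT vehicle (806 in the library labelled WT vehicle replicate 1), 336 and 408 in WT ifetroban, 885 and 591 in KO vehicle, and 583, 417 and 426 in KO ifetroban. Within each genotype the groups did not overlap, though KO ifetroban replicate 1 came close to KO vehicle replicate 2. The averaged log2 fold change was -0.71 ± 0.2 (SE, edgeR, unadjusted p = 0.00575, adjusted p = 0.62), with -0.78 in WT and -0.64 in KO. Leaving out the library labelled WT vehicle replicate 1 gave -0.48, and the length class term gave -0.34.

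Cd59a encodes a membrane inhibitor of the complement attack complex. It held 54.8 and 31.1 CPM in WT vehicle, 17.3 and 15.9 in WT ifetroban, 40.2 and 62.4 in KO vehicle, and 27.7, 14.4 and 48.7 in KO ifetroban. Only KO ifetroban replicate 3 reached the vehicle range of its genotype. The averaged log2 fold change was -1.07 ± 0.325 (SE), and -0.90 with the length class term. Ccl24, an eosinophil-attracting chemokine, was low throughout, at 2.26 and 2.67 CPM in WT vehicle, 0.805 and 1.55 in WT ifetroban, 4.65 and 1.79 in KO vehicle, and 1.78, 1.41 and 1.63 in KO ifetroban. It was the only one of the 20 genes with all 5 ifetroban libraries below all 4 vehicle libraries, and KO ifetroban replicate 1 and KO vehicle replicate 2 were nearly equal. Its averaged log2 fold change was -1.03 ± 0.322 (SE), and -0.61 without KO vehicle replicate 1.

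Of the remaining lower genes, Mfap5 and Mgp are made by fibroblasts and vessel wall cells and go into the matrix. Mfap5 held 26.5 and 13.7 CPM in WT vehicle, 15.8 and 12 in WT ifetroban, 88.8 and 48.7 in KO vehicle, and 35.6, 28.1 and 36.3 in KO ifetroban. Only the KO groups did not overlap, and the averaged log2 fold change was -0.79 ± 0.237 (SE), or -0.50 without the library labelled WT vehicle replicate 1. Mgp, an inhibitor of calcification, was at -0.49, with -0.18 in WT and -0.79 in KO. The chemerin gene Rarres2 was at -0.52, Clec2d, a ligand of natural killer cell receptors, at -0.59, and the interferon-induced genes Ifitm1 and Ube2l6 at -0.86 and -0.51. Ak6, at -0.64, shares 56.5% of its exonic length with Taf9 and is uncertain.

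**Figure D2:**
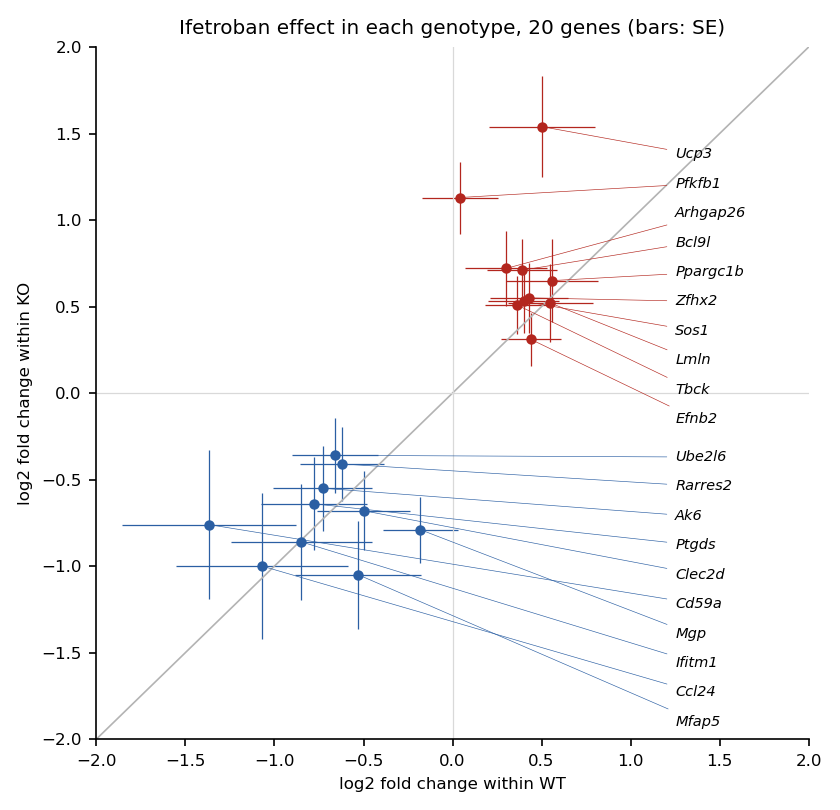
Log2 fold change with ifetroban within WT (horizontal axis) against within KO (vertical axis) for the same 20 genes; points are edgeR estimates, bars are standard errors and the grey diagonal marks equal effects. Ucp3 (0.50 and 1.54) and Pfkfb1 (0.04 and 1.13) lie farthest above the diagonal among the higher genes.

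The averaged effect followed transcript length, and so did these genes. Over 15235 genes with an annotated exonic length, the averaged log2 fold change and log2 length had a Spearman correlation of 0.51 across genes. The median effect ran from -0.30 in the shortest of 10 equal bins of exonic length (median 944 bases) to 0.23 in the longest (median 12128 bases). The 10 higher genes had a median exonic length of 7426 bases and the 10 lower genes one of 1730 bases, beside 4182 for all tested genes. The correlation was 0.36 with the library labelled WT vehicle replicate 1 left out, 0.03 after correction of each library for its length trend, and 0.04 with a term for the length class. All 20 genes kept their direction under both corrections. The higher genes then lay between 0.17 and 1.08 with length correction and between 0.24 and 1.09 with the class term, and the lower genes between -0.89 and -0.25 and between -1.02 and -0.26. The class term left 34 genes higher and 117 lower at an unadjusted p under 0.05. How much of the averaged effect comes from the drug and how much from the length class cannot be told apart where the class goes with treatment.

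**Figure D3:**
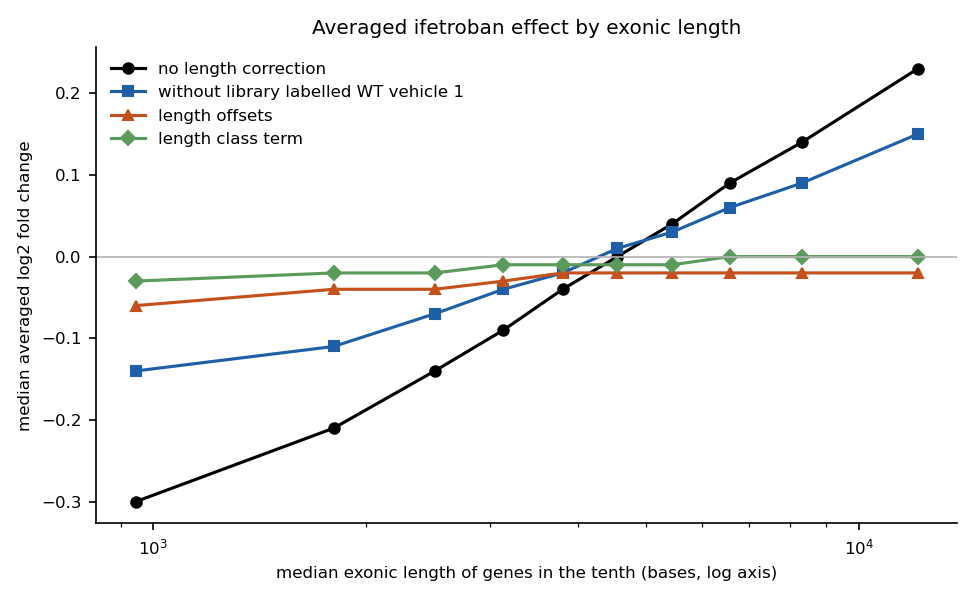
Median averaged log2 fold change (vertical axis) of the genes in each of 10 equal bins of exonic length (horizontal axis, log scale, bases); lines join the values without correction, without the library labelled WT vehicle replicate 1, with length correction and with a length class term. The uncorrected line runs from -0.30 to 0.23 and the corrected lines stay between -0.06 and 0.

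The genes around the drug's target were next. Tbxa2r held 2.93 and 3.55 CPM in WT vehicle, 3.61 and 1.94 in WT ifetroban, 4.42 and 5.32 in KO vehicle, and 3.69, 1.96 and 4.03 in KO ifetroban. The WT groups overlapped and the KO groups did not, and the averaged log2 fold change was -0.41 ± 0.272 (SE, edgeR, unadjusted p = 0.161, adjusted p = 0.624). Leaving out WT ifetroban replicate 1 gave -0.67, and leaving out replicate 2 of that group gave -0.22. Of 9 prostanoid receptors 5 were tested, and the other 4, Ptger2, Ptger3, Ptgdr and Ptgdr2, were too low, with Ptgdr at 0 in all 9 libraries. The prostaglandin E receptor Ptger4 was at -0.56, the prostacyclin receptor Ptgir at -0.22, Ptger1 at -0.22 and the prostaglandin F receptor Ptgfr at 0.45. None had an unadjusted p under 0.05, and Ptger4 was at 0.02 with the length class term. Ptgfr ran from 0.07 without WT ifetroban replicate 1 to 1.29 without KO vehicle replicate 2.

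All 23 genes of prostanoid and related lipid mediator synthesis were tested. Of these, 7 were positive, 3 had an unadjusted p under 0.05 on the lower side (background 2.65%) and none on the higher side, and the median was -0.10. The 3 were Ptgds, Ptgis and Ptgs2. Ptgs2, the inducible cyclooxygenase, held 3.39 and 0.464 CPM in WT vehicle, 0.767 and 0.634 in WT ifetroban, 23.9 and 2.5 in KO vehicle, and 4.91, 2.18 and 1.63 in KO ifetroban. The averaged value of -1.80 ± 0.726 (SE) rested on the first vehicle library of each genotype, and without the library labelled WT vehicle replicate 1 and KO vehicle replicate 1 it was 0.40. Ptgis, prostacyclin synthase, held 18.8 and 13.4 CPM in WT vehicle, 17.5 and 11 in WT ifetroban, 65.9 and 33.6 in KO vehicle, and 26.7, 18.0 and 27.8 in KO ifetroban. Here the KO groups did not overlap while the WT groups did, and the averaged log2 fold change was -0.61 ± 0.243 (SE), with -0.17 in WT and -1.04 in KO. It was -0.32 without KO vehicle replicate 1 and -0.19 with the first vehicle library of both genotypes left out. Thromboxane synthase Tbxas1 was at -0.23 ± 0.256 (SE) and the constitutive cyclooxygenase Ptgs1 at 0.00 ± 0.177 (SE).

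Downstream of the receptor, 21 of 30 genes of Gq, G12/13 and RhoA kinase signalling were positive, with a median of 0.10. At an unadjusted p under 0.05, 1 of them, the RhoA exchange factor Arhgef11 at 0.35, was higher (background 2.46%). The 30 genes have long transcripts (median 7572 bases), and their median was -0.01 with length correction and -0.01 with the class term. In nitric oxide and cyclic nucleotide signalling the median over 22 genes was 0.06. Here 4 genes had an unadjusted p under 0.05, all higher (background 2.46%): the phosphodiesterases Pde5a at 0.49, Pde3a at 0.52 and Pde4d at 0.62, and the cyclic GMP-dependent kinase Prkg1 at 0.65. Pde5a held 4.26 and 6.72 CPM in WT vehicle, 8.32 and 7.41 in WT ifetroban, 4.37 and 5.64 in KO vehicle, and 5.56, 7.76 and 7.49 in KO ifetroban. Only KO ifetroban replicate 1, of the class with long transcripts low, lay within the vehicle range. With the class term the 4 values were 0.19, 0.20, 0.17 and 0.09.

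Among vasoactive peptides and receptors the median over 28 genes was 0.02, with 15 positive. Edn1, endothelin 1, held 6.31 and 5.95 CPM in WT vehicle, 4.41 and 4.75 in WT ifetroban, 10.6 and 5.88 in KO vehicle, and 6.12, 4.11 and 4.38 in KO ifetroban. The WT groups did not overlap and KO ifetroban replicate 1 lay above KO vehicle replicate 2. Its averaged log2 fold change was -0.59 ± 0.211 (SE, edgeR, unadjusted p = 0.0201, adjusted p = 0.62), and -0.35 without KO vehicle replicate 1. Corin, the protease that activates natriuretic peptides, was at 0.39, and the alpha-adrenergic receptor Adra1a at 0.79 ± 0.37 (SE), which was 0.46 and 1.43 when the first and the second KO vehicle library were left out, and 0.23 with the length class term. The angiotensin receptor Agtr1a was at 0.07 and endothelial nitric oxide synthase Nos3 at 0.03.

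Immediate early genes encode transcription factors and feedback regulators that cells switch on within minutes of a stimulus. All 25 tested members had a negative averaged value, with a median of -0.97 (-0.79 in WT and -0.96 in KO), and 7 had an unadjusted p under 0.05 on the lower side (background 2.65%). Nr4a1, an orphan nuclear receptor, held 199 and 19.7 CPM in WT vehicle, 10.7 and 19.8 in WT ifetroban, 207 and 36.2 in KO vehicle, and 80.3, 31.4 and 16.1 in KO ifetroban. In each genotype 1 vehicle library stood apart, the library labelled WT vehicle replicate 1 and KO vehicle replicate 1, and the second vehicle library lay within the ifetroban range. The averaged log2 fold change was -2.18 ± 0.736 (SE), and -0.07 without those 2 libraries. Atf3 held 39.7 and 4.87 CPM in WT vehicle, 2.88 and 8.04 in WT ifetroban, 126 and 6 in KO vehicle, and 14.3, 11 and 4.58 in KO ifetroban, and for Junb and Egr2 the same 2 libraries were the highest of their genotype. Without them 21 of the 25 genes were positive and the median was 0.27. With KO vehicle replicate 1 alone left out the median was -0.27, and with the length class term it was -0.29.

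For 3 of the immediate early genes the 250 bases before the start are shown (RefSeq, GRCm38.p6). The core of the cyclic AMP response element, TGACG or its reverse complement CGTCA, is in capitals. Whether it bears on the levels was not tested. Nr4a1 lies at chr15:101266596-101266845 on the plus strand, Atf3 at chr1:191183334-191183583 and Junb at chr8:84978749-84978998, both on the minus strand. The core was in 13 of the 20 immediate early genes with a window (65.0%) and in 17.8% of all windows. The full element TGACGTCA, which contains the core, was in 3 of 20 and in 1.55% of all windows. A gene was counted if any of its windows matched, while the shares of all windows count each window singly. Genes with several windows have more chances to match, so these shares are not like for like.
Nr4a1: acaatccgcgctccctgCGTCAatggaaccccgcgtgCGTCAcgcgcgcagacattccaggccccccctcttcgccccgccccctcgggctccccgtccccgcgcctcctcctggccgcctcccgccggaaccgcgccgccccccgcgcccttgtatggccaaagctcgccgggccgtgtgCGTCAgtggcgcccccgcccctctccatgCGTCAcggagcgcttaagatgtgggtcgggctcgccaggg
Atf3: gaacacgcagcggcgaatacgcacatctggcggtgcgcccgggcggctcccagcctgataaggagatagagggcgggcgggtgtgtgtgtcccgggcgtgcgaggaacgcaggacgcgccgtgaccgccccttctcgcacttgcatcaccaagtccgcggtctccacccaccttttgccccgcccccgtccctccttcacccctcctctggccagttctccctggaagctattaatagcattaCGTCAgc
Junb: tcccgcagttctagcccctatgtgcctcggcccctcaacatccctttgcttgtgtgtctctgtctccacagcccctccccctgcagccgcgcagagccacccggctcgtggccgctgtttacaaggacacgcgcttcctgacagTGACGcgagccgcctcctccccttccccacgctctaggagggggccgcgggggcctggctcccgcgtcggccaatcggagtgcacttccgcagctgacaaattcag

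**Figure D4:**
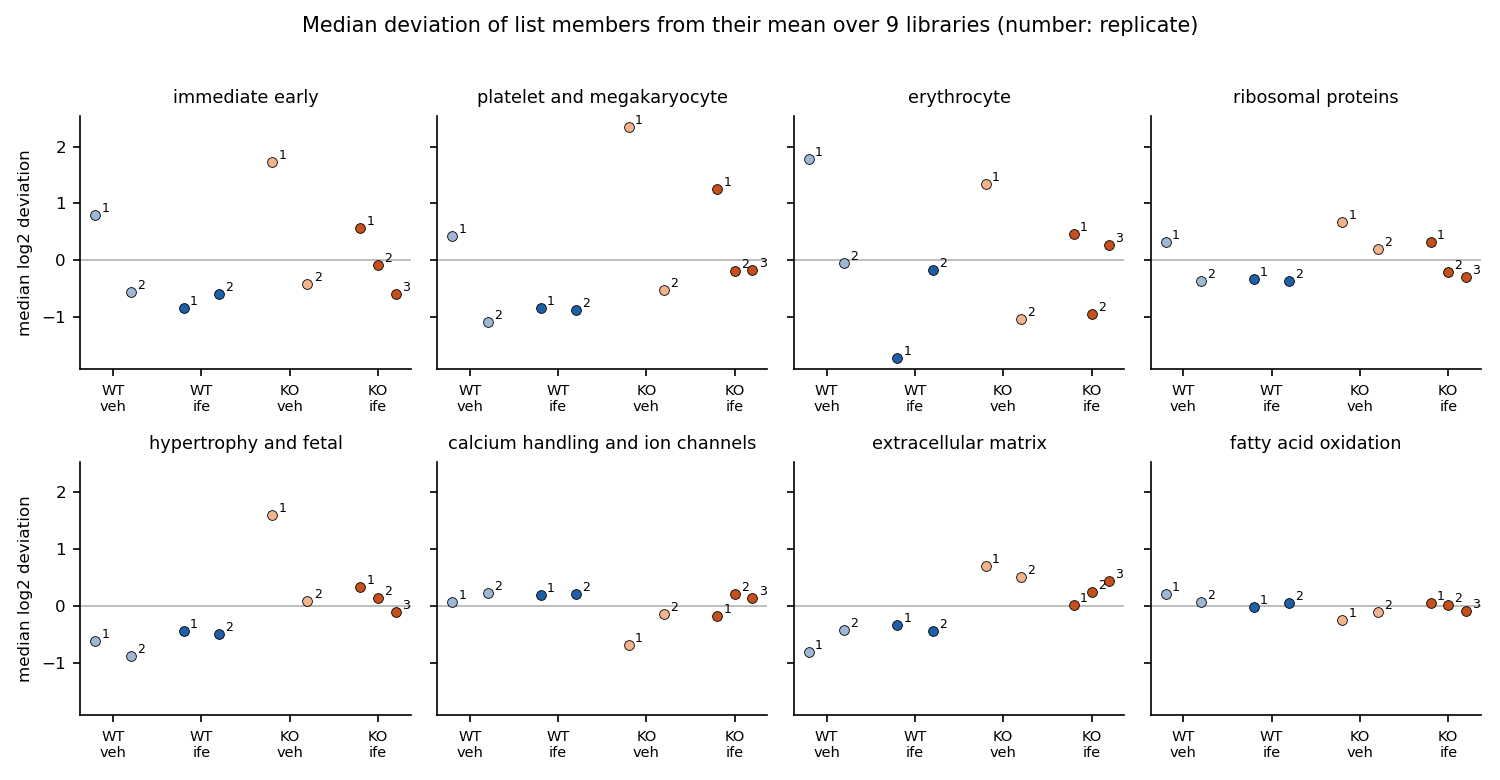
Median log2 deviation of the tested members of 8 gene lists from their mean over the 9 libraries (vertical axis) by genotype and treatment; each point is a library, with its replicate number. For immediate early genes the library labelled WT vehicle replicate 1 stands at 0.80 and KO vehicle replicate 1 at 1.72, while the other vehicle libraries stand at -0.56 and -0.42.

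The summed levels of erythrocyte, platelet and neutrophil genes were highest, within each genotype, in the same 2 vehicle libraries. All 8 tested erythrocyte genes were negative (median -1.33) with 5 at an unadjusted p under 0.05 on the lower side (background 2.65%), while Epb42 was too low to test and had 0 reads in 4 libraries. Their summed level was 153 to 508 CPM in WT vehicle, 60.6 to 122 in WT ifetroban, 85 to 405 in KO vehicle and 83.7 to 218 in KO ifetroban. The beta-globin gene Hbb-bs held 255 and 72.3 CPM in WT vehicle, 24.1 and 54.5 in WT ifetroban, 209 and 36.6 in KO vehicle, and 108, 39.4 and 98.8 in KO ifetroban. Globin genes include near-identical copies, and counts in the layout of STAR's gene quantification leave out reads with several alignments. Globin levels therefore rest on uniquely aligned reads and may be too low. Genes of platelets, which thromboxane activates, were negative in 10 of 10 (median -1.05), with 1, Clec1b, at an unadjusted p under 0.05 (background 2.65%). Their summed level was 18.7 to 28.9 CPM in WT vehicle, 13.3 to 19.1 in WT ifetroban, 29.2 to 77.0 in KO vehicle and 22.6 to 40.0 in KO ifetroban, with Gp6 at 0 in 4 libraries and too low to test. Platelet chemokine Pf4 was at -0.54, and Gp1bb shares 92.9% of its exonic length with other gene models. Without the library labelled WT vehicle replicate 1 and KO vehicle replicate 1 the erythrocyte median was 0.13 and the platelet median -0.07.

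Neutrophil genes were negative in 7 of 8 (median -1.13), led by Retnlg at -1.80 and the calprotectin genes S100a9 at -1.15 and S100a8 at -1.19. The list's median was -0.54 with the library labelled WT vehicle replicate 1 left out, -0.24 with the first vehicle library of both genotypes left out, and -0.24 with the length class term, where S100a8 was at -0.17 and S100a9 at -0.26. Retnlg was at -3.62 without WT ifetroban replicate 1. Their summed level was 9.74 to 20.7 CPM in WT vehicle, 4.52 to 14.8 in WT ifetroban, 25.4 to 250 in KO vehicle and 30.7 to 85.3 in KO ifetroban, and the granule genes Ngp, Camp and Ltf were at 0 in 5, 7 and 6 libraries. The cytokine and chemokine list had 28 of 33 negative (median -0.49), with Il1b at -2.35, Tnf at -1.53 and Cxcl1 at an unadjusted p under 0.05 (background 2.65%). KO vehicle replicate 1 held 37.0 CPM of Il1b where the other 8 libraries held 0.115 to 7.76. Without it the list's median was 0.05. Liver marker genes were highest in KO vehicle replicate 1 as well. All 4 tested of 10 listed were negative (median -1.41), and their summed level was 77 CPM in KO vehicle replicate 1 and 1.82 to 8.13 CPM in the other 8 libraries. Serpina1a, Fga and Apob were too low to test and had 0 reads in 6, 4 and 3 libraries. Without the first vehicle library of both genotypes the liver median was 0.12. The part of blood cells or of RNA from another tissue in the other results was not tested.

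Hypertrophy and fetal genes are those that stressed heart muscle cells switch on. Of 16 tested, 14 were negative with a median of -0.46, from -0.02 in WT and -0.87 in KO, and 3 (Gdf15, Acta1 and Csrp3) had an unadjusted p under 0.05 on the lower side (background 2.65%). Nppa, atrial natriuretic peptide, held 230 and 209 CPM in WT vehicle, 208 and 279 in WT ifetroban, 1280 and 923 in KO vehicle, and 759, 379 and 363 in KO ifetroban. All 3 KO ifetroban libraries lay below both KO vehicle libraries and above the WT libraries, and WT groups overlapped. The averaged log2 fold change was -0.49 ± 0.235 (SE), with 0.15 in WT and -1.14 in KO (edgeR interaction, unadjusted p = 0.0214, adjusted p = 1). Nppb held 217 and 224 CPM in WT vehicle, 139 and 262 in WT ifetroban, 2080 and 531 in KO vehicle, and 670, 519 and 372 in KO ifetroban, and its averaged -0.73 was -0.08 without KO vehicle replicate 1. Ankrd1, a stretch-responsive nuclear protein, was at -0.44, with -0.01 in WT and -0.86 in KO, and at -0.11 without KO vehicle replicate 1. Gdf15, a stress hormone, held 69.6 CPM in KO vehicle replicate 1 and 1.04 to 5.52 elsewhere, and its -1.68 was -0.25 without that library. Skeletal actin Acta1 was at -1.07 and the muscle LIM protein gene Csrp3 at -0.54, and at -0.35 and -0.20 without the library labelled WT vehicle replicate 1. The list's median was -0.09 without KO vehicle replicate 1.

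Calcium handling and ion channel genes stood on the other side, with 35 of 40 positive, a median of 0.27 (0.04 in WT and 0.47 in KO) and 5 at an unadjusted p under 0.05, all higher (background 2.46%). Ryr2, the calcium release channel, held 1340 and 2610 CPM in WT vehicle, 2520 and 2510 in WT ifetroban, 880 and 1250 in KO vehicle, and 1210, 2560 and 2360 in KO ifetroban. The low libraries were the 4 with long transcripts low, whatever their treatment, and Ryr2 has 28790 bases of exonic sequence. Its averaged log2 fold change was 0.64 ± 0.263 (SE) and 0.06 with the class term. The calcium pump Atp2a2 held 14100 and 17000 CPM in WT vehicle, 17500 and 16100 in WT ifetroban, 8870 and 11300 in KO vehicle, and 12500, 15700 and 15700 in KO ifetroban. In KO the groups did not overlap, and the averaged log2 fold change was 0.33 ± 0.132 (SE), 0.15 with the class term. The calcium channel Cacna1c was at 0.57 and the potassium channel subunit Kcnv2 at 0.63 (0.09 in WT and 1.17 in KO), and with the class term at 0.08 and 0.18. The list's median was then 0.08.

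Sarcomere genes had a median of -0.02 with 12 of 24 positive. Myh6 was at 0.41 ± 0.185 (SE) and 0.05 with the class term. The fetal isoform Myh7 held 172 and 140 CPM in WT vehicle, 239 and 368 in WT ifetroban, 184 and 715 in KO vehicle, and 207, 295 and 371 in KO ifetroban, so that it was at 0.96 in WT, -0.63 in KO and 0.17 on average. Neb, a giant thin filament protein with 26582 bases, was at 0.86, and the troponin C gene Tnnc1, with 1041 bases, at -0.32. The dystrophin-glycoprotein complex had a median of 0.13 with 17 of 24 positive. Dystrophin (Dmd) was at 0.60 and utrophin (Utrn) at 0.56, both with an unadjusted p under 0.05 (background 2.46%). With the class term they were at 0.16 and 0.04. Sgcd itself was at 0.64 ± 0.295 (SE, edgeR, unadjusted p = 0.0553, adjusted p = 0.62). It held 33.1 and 31.2 CPM in WT ifetroban against 28.9 and, in the library labelled WT vehicle replicate 1, 11.1 CPM, and 9.77, 16.4 and 18.5 CPM in KO ifetroban against 7.49 and 12.1 in KO vehicle. Without that library the value was 0.39, and with the class term 0.07.

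Short transcripts of constitutive complexes lay below 0. All 48 tested ribosomal protein genes were negative (median -0.44, range -0.56 to -0.29), and 21 had an unadjusted p under 0.05 on the lower side (background 2.65%). Rps27 held 175 and 92.0 CPM in WT vehicle, 91.5 and 87.0 in WT ifetroban, 170 and 145 in KO vehicle, and 138, 107 and 93.0 in KO ifetroban. The 4 highest libraries were those with long transcripts low. The list's median was -0.26 with length correction and -0.07 with the class term, where 47 of 48 were still negative. Nuclear genes of oxidative phosphorylation had 45 of 48 negative (median -0.28) with 3, Cox7a1, Uqcrh and Ndufa2, at an unadjusted p under 0.05 (background 2.65%). Their median was -0.10 with length correction and 0.03 with the class term, where 35 of 48 were positive.

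**Figure D5:**
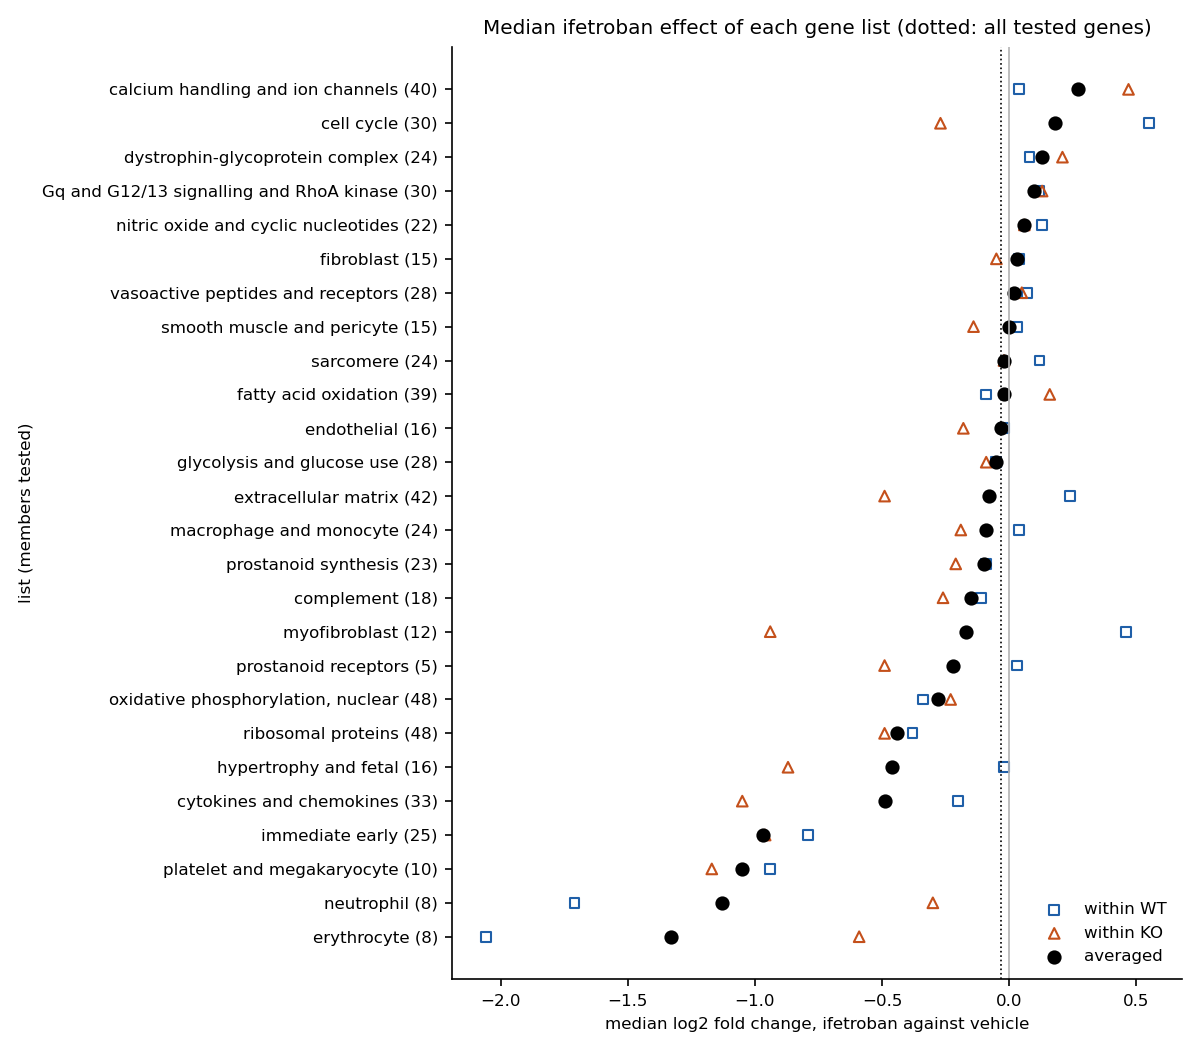
Median log2 fold change with ifetroban (horizontal axis) of the tested members of 26 gene lists (vertical axis, number tested in brackets), averaged (filled circles), within WT (squares) and within KO (triangles); the dotted line marks the median of all tested genes. The erythrocyte, neutrophil, platelet and immediate early lists lie between -1.33 and -0.97, macrophage and monocyte genes at -0.09, and calcium handling and ion channels at 0.27.

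Extracellular matrix and myofibroblast genes had medians of opposite sign in the genotypes. Of 42 extracellular matrix genes, 30 were positive in WT (median 0.24) and 4 in KO (median -0.49). At an unadjusted p under 0.05, 1 of the 42, Mfap5, was lower on average (background 2.65%). The averaged median was -0.08. Without WT vehicle replicate 1, as labelled, that median was -0.17 with 9 of 42 positive, and without replicate 2 it was 0.13. The length class term gave -0.25 with 4 of 42 positive. Within WT, matrix genes stood at a median deviation of -0.81 and -0.42 in vehicle replicates 1 and 2. WT ifetroban stood at -0.33 and -0.43, so only vehicle replicate 1 lay outside the ifetroban range. Myofibroblast genes had a median of 0.46 in WT, -0.94 in KO and -0.17 on average. Thbs4, a matrix glycoprotein of stressed heart, held 6.26 and 5.14 CPM in WT vehicle, 7.98 and 8.48 in WT ifetroban, 61.6 and 33.8 in KO vehicle, and 20.7, 18.9 and 15.9 in KO ifetroban. The groups did not overlap in either genotype and differed in opposite directions, 0.53 in WT and -1.36 in KO, for an average of -0.42 ± 0.187 (SE, edgeR interaction, unadjusted p = 0.00055, adjusted p = 1), or -0.17 without KO vehicle replicate 1. Postn, periostin of activated fibroblasts, was at 0.39 in WT and -0.92 in KO, with KO vehicle libraries at 138 and 295 CPM and KO ifetroban libraries at 84.3, 111 and 149. Without KO vehicle replicate 2 its average of -0.26 was 0.07. The collagens Col1a1 and Col3a1 were at 0.11 ± 0.147 and 0.12 ± 0.184 (SE), and Ccn2, Tgfb1 and Tgfb2 at -0.70, -0.36 and -0.26, of which Ccn2 was at 0.21 without KO vehicle replicate 1. Tgfb1 and Tgfb2 were at -0.09 and -0.03 without that library. Fibroblast genes had a median of 0.03, with 0.04 in WT and -0.05 in KO, and of -0.15 with 0 of 15 positive under the length class term.

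Endothelial genes had a median of -0.03, with Egfl7 at -0.43 and Vwf at 0.41. Smooth muscle and pericyte genes had a median of 0.00, with 7 of 15 positive and a highest value of 0.47. The 4 members of lowest p were Tagln at -0.65, Cnn1 at -0.61, Acta2 at -0.39 and Des at -0.34. Tagln held 115 CPM in KO vehicle replicate 1 and 27.2 to 50.4 elsewhere, and without that library Tagln was at -0.23 and Cnn1 at -0.14. Macrophage and monocyte genes had a median of -0.09, with Gpnmb, a lysosomal glycoprotein, at 0.84 and the complement component C1qb at -0.44. Complement genes had a median of -0.15. Cell cycle genes had a median of 0.18, with 28 of 30 positive in WT (median 0.55) and 4 in KO (median -0.27). In WT the list's median deviation was -0.83 in the library labelled WT vehicle replicate 1 and 0.84 in WT ifetroban replicate 1, while the second libraries stood at 0.19 and -0.18. Leaving out WT ifetroban replicate 1 gave a median of -0.12.

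Whether the effect differed between genotypes was tested by the interaction, which called 0 genes (0%), with 211 (1.38%) at an unadjusted p under 0.05. DESeq2 called none either, with a smallest adjusted p of 0.0687. Within WT alone 0 genes were called and 192 (1.26%) had an unadjusted p under 0.05, and within KO alone 0 were called and 766 (5.02%) did. Of the 129 genes named by rule, 10 had an unadjusted interaction p under 0.05, namely Ucp3, Pfkfb1, Kcnv2, Retnlg, Gdf15, Thbs4, Nppa, Meox1, Postn and Myh7. For 4 of them (Ucp3, Pfkfb1, Kcnv2 and Retnlg) the value was higher in KO than in WT, with Retnlg at -3.37 in WT and -0.23 in KO. For the other 6 it was lower in KO than in WT, and negative there.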

How the data were processed

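For each of the 9 libraries the authors deposited unnormalized counts of reads by gene. Per the submitters' processing notes, STAR 2.5.2b, HTSeq and the build GRCm38 were used; the layout is that of STAR's gene quantification, which does not count reads with several alignments. The reverse-strand column, with 14.46 times the counts of the forward column, was used. Rows naming no gene (26.581% to 31.926% of reads) were left out. Of 49671 identifiers, 49412 matched GENCODE M21 for symbols, positions and exonic lengths.

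Counts were scaled by TMM, filtered by filterByExpr and tested in edgeR 4.0.16 (R 4.3.3) by quasi-likelihood, with 1 coefficient per group of genotype and treatment and all 9 libraries sharing 1 estimate of the spread. Tests were two-sided and adjusted by the Benjamini-Hochberg method over 15261 genes, with 0.05 as threshold. Standard errors were calculated back from the F statistic and are approximate. Replicates differed by 15 to 92.8 chi-square per degree of freedom, more than repeated reads of the same library would. Separate preparations from the same mouse could pass this check as well, so it does not show that the samples are independent. Scripts were tested on simulated data.

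Genes were named by rule: per direction the 10 of lowest p whose mean log2 CPM reached 1 and whose sign was the same in both genotypes, leaving out unnamed models, pseudogenes and mitochondrial genes; 27 fixed genes, of which Ptger3 was not tested; and from each described list no more than 4 members, those of lowest p. The groups of genes and the lists were chosen with earlier results of these data known. Lists are described by counts and medians, with no test. Alternatives were DESeq2 1.42.0, limma 3.58.1 with library weights, other scalings, filters and models, length correction (a lowess offset per library) and a length class term, and leaving out libraries. Using limma weights and leaving out KO vehicle replicate 1 and KO ifetroban replicate 1 together were chosen after seeing the data.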

Additional observations from a re-analysis of the deposited data

How the results depend on the processing

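The averaged effect was recomputed under 23 alternatives, 2 of them chosen after seeing the data. The averaged count was 0 in every one except DESeq2 (1 gene) and no filter on low counts (290 genes, 134 higher and 156 lower). Of these 290 genes, 273 also pass the filter, but edgeR called 0 genes in the filtered fit. The smallest adjusted p of edgeR was 2.63e-38 with no filter and 0.62 with it. With no filter, 34 genes were called within WT, 428 within KO and 73 for the interaction. DESeq2 called 3 within KO (Ucp3 at 1.53 and Pfkfb1 at 1.12 higher, Thbs4 at -1.37 lower). Leaving out 1 library at a time gave 0 to 449 calls within KO, with 449 (145 higher and 304 lower) without KO vehicle replicate 2. For the averaged effect it gave 178 genes at an unadjusted edgeR p under 0.05 without the library labelled WT vehicle replicate 1 and 3004 without KO vehicle replicate 2. Where this left 1 library in a group, that library was assumed to vary like the other groups. The causes were not tested.

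With the replicate number as a block, 0 genes were called, and 560 were higher and 426 lower at an unadjusted p under 0.05. Same-numbered libraries correlated at 0 to 0.48 in their deviations, not every pair above 0.1, and the labels give no pairing, so they were not treated as pairs.

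Of the 129 named genes, 100 kept their direction under every alternative and 29 did not. Signs opposite to the reported ones (or 0) were as follows. With the length class term they were Arhgef12 0, Col1a1 -0.14, Col3a1 -0.20, Ddr2 -0.15, Myh7 0, Nos3 -0.08, Ptger4 0.02, Ptgs1 -0.17 and Vwf -0.15. Length correction gave Col3a1 -0.06 and Myh7 -0.01. Counts without regard to strand gave Nos3 -0.10 and Ptgs1 -0.06, the block Ptgs1 -0.04, treatment alone Myh7 -0.03, and the stricter filter and upper-quartile scaling Ptgs1 0. Without KO vehicle replicate 1 and KO ifetroban replicate 1 they were Agtr1a -0.22, Ccn2 0.13, Lif 0.18, Lox 0.06, Myh7 -0.07, Ptgir 0.03, Ptgs1 -0.04, Thbs1 0.29 and Timp1 0.62. Without the library labelled WT vehicle replicate 1 and the first KO vehicle library they were Agtr1a -0.13, Ankrd1 0, Atf3 0.45, Ccn2 0.12, Col1a1 -0.03, Col3a1 -0.11, Cxcl1 0.44, Hba-a1 0.11, Hba-a2 0.05, Hbb-bs 0.14, Il1b 0.24, Junb 0.06, Lif 0.16, Myh7 -0.09, Ppbp 1.16, Ptger4 0.12, Ptgs1 -0.12, Ptgs2 0.40, Thbs1 0.50 and Timp1 1.43. Leaving out 1 library at a time gave ranges across 0 for Agtr1a (-0.21 to 0.53), Ccn2 (-1.09 to 0.21), Col3a1 (-0.03 to 0.33), Lgals3 (-0.02 to 0.84), Lif (-2.20 to 0.16), Lox (-0.80 to 0.09), Myh7 (-0.17 to 0.82), Nos3 (-0.07 to 0.16), Postn (-0.49 to 0.07), Ptgs1 (-0.10 to 0.13), Tbxas1 (-0.41 to 0.02), Thbs1 (-1.78 to 0.36) and Timp1 (-1.54 to 1.08).

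Receptors such as Ptgdr, Ptgdr2, Ptger2 and Ptger3 were too low for any difference to be detectable at this depth.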

Other observations

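Other gene lists again had 0 genes called by edgeR (780 of all tested genes had an unadjusted p under 0.05, and DESeq2 called Ucp3 only) and are described by their values only. Targets of SRF and MRTF, the actin-controlled transcription factors downstream of RhoA, had 16 of 21 negative with a median of -0.39, and a median of 0.09 when the first vehicle library of each genotype was left out. Heat shock genes had 18 of 19 negative (median -0.24), and then a median of 0.09. Glucocorticoid target genes had a median of -0.28, and then one of 0.53. Circadian clock genes, whose levels follow the hour of tissue collection, had 16 of 21 positive (median 0.10), the same median of 0.10 when those vehicle libraries were left out, and -0.16 without WT ifetroban replicate 1. The 13 genes of the mitochondrial genome had a median of -0.23 and, with the length class term, 0.08. Mesothelial and epicardial genes had a median of -0.14 over 10 genes, with a range of -0.46 to 1.01 when 1 library at a time was left out.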
